A study of Mus musculus with 36 samples.

Results

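DNase I hypersensitive sites (DHS) of the mouse pre-B cell line B3 were examined for those at which the difference between the Ikaros line and the control line had opposite signs before and after induction. A DHS was taken when the mean of the 3 Ikaros libraries minus the mean of the 3 control libraries was at least 0.6 on the log2 scale at 0 h and at most -0.3 at both 12 h and 24 h. DHS at or below -0.6 throughout (12 h, 18 h, 24 h) were left out. The rule selected 589 of the 52788 DHS in the table, or 1.12%. Of the 5648 DHS that reached the threshold at 0 h, 1221 also met that at 12 h and 629 met all 3, and the last clause then removed 40. The members were thus chosen on the values of 4 times (0, 12, 18 and 24 h), which are described here without a test.

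DNase-seq was measured in 36 libraries, with 3 replicates in each of 12 groups formed by 2 lines and 6 times, of which 0 h was the start and 2 h the first after it, followed by 6 h, by 12 h, by 18 h and lastly by 24 h. In the Ikaros line an MSCV retrovirus supplies GFP and, from the same transcript, an HA-tagged Ikaros that carries the drug-responsive ERt2 domain. The control line carries the vector without Ikaros and is called Control in the labels. Both lines were sorted for GFP, and both were given 0.5 µM 4-hydroxytamoxifen, a drug that lets the fused ERt2 domain enter the nucleus. The labels name the drug for every sample, whereas the methods state that cells at 0 h received none and were collected separately from the other times. A change within a line from 0 h to a later time therefore cannot be told apart from that separate collection. Replicate 4 is batch 11, replicate 5 is batch 12 and replicate 6 is batch 13. The methods give a minimum depth for all replicates, but the table holds no read counts, so the depth of each library was not known here and the number of libraries limits the precision. Of 11 pre-B marker genes, 9 had a promoter DHS, with mean levels from 3.91 to 5.99. Of 11 marker genes of other cell types, only Lyz2, a lysozyme gene of myeloid cells, had a promoter DHS, at a mean level of 3.29. Its line difference was 0.0099 before the drug (0 h) and 0.86, 0.85 and 0.89 at the last 3 times, and its part in the results was not tested.

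Ikaros is a zinc finger transcription factor of lymphocytes that binds DNA at a short GGGAA-type core and recruits chromatin remodelling complexes. In pre-B cells it acts against proliferation and favours the step from large cycling to small resting cells. DHS mark places where nucleosomes are displaced. They lie at promoters, many of which are rich in G, C and the dinucleotide CpG, and at distal enhancers.

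The sequences of 6 members, outside annotated untranslated regions, are shown because these members were among the DHS with the largest change of sign. Each is the plus strand of mm10 (GRCm38), in lower case with CpG dinucleotides in capitals. The bases from the start to the end given in the deposited table were read, both included, or the central 200 where a DHS was longer.

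Rusc1 promoter, chr3:89090761-89090926: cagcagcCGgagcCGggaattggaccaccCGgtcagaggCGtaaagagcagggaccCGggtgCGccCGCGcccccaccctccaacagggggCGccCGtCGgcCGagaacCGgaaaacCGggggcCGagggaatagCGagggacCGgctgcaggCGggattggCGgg
Ssbp4 promoter, chr8:70609472-70609671: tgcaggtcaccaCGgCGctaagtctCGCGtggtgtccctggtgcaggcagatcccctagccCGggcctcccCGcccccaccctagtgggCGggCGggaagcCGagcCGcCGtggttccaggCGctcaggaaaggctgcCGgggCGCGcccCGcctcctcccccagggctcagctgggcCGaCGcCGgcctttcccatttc
Agpat2 promoter, chr2:26603839-26604020: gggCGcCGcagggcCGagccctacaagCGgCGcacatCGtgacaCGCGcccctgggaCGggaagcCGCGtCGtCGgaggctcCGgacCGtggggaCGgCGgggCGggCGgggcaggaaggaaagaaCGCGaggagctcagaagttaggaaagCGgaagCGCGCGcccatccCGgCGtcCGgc
Chd2 exon, chr7:73435876-73435962: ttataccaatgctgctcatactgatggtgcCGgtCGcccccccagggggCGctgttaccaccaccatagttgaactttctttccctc
Ssh2 intron, chr11:77410040-77410170: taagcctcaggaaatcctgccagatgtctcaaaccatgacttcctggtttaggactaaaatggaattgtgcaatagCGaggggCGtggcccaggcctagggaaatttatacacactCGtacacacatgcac
Between genes, 16096 bp from the start of 4930467E23Rik, chr8:19713394-19713480: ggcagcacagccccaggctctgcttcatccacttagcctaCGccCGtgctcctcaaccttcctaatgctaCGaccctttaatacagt

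The Agpat2 stretch held 28 CpG in 182 bases and the Rusc1 stretch 19 in 166 bases, whereas the Ssh2 intron held 3 in 131 bases. The GC content of these stretches ran from 48.1% in the Ssh2 intron to 73.6% at Agpat2. All 6 were chosen for the change of sign, so they say nothing on whether base composition goes with it.

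The members started high in the Ikaros line and ended low in it. In the Ikaros libraries the median over the 589 DHS was 5.18, 5.05 and 4.90 at 0 h (replicates 4, 5 and 6), on the log2 RPKM scale of the table. It was 4.06, 4.12 and 4.16 at 12 h and 4.20, 4.13 and 4.19 at 24 h. The Ikaros libraries at 0 h lay above every later Ikaros library. In the control libraries the median was 4.35, 4.42 and 4.01 at 0 h, 4.51, 4.88 and 4.79 at 12 h, and 4.59, 4.58 and 4.71 at 24 h. The control libraries at 0 h lay below those at 12 h and 24 h, and replicate 6 at 0 h was the lowest of the 18 control libraries. Over all DHS the library medians stayed between 3.90 and 4.11 in all 36 libraries.

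**Figure D1:**
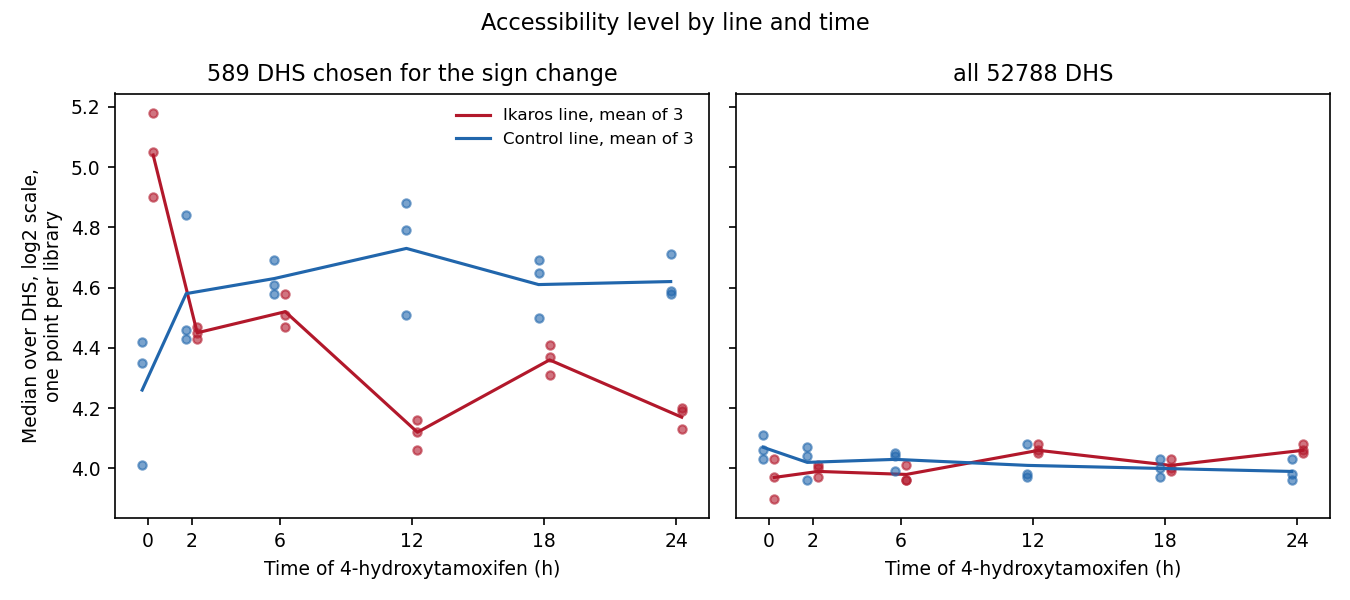
Median accessibility (log2 scale) of each library by time (h), for the 589 DHS chosen for the sign change and for all 52788 DHS; points are libraries and lines join the means of 3. The Ikaros libraries lie above the control libraries at 0 h and below them from 12 h on in the left panel, as the choice of members requires at 0 h, 12 h and 24 h.

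The median difference, Ikaros minus Control, over the members was 0.75 at 0 h, -0.53 at 12 h and -0.41 at 24 h. Over all DHS the medians were -0.06, 0.048 and 0.055. All 3 Ikaros values lay above all 3 control values at 0 h in 384 members (65.2%), against 12.4% of all DHS. They lay below at 12 h in 294 members (49.9%), against 8.72% of all DHS, and at 24 h in 299 members (50.8%), against 10.4% of all DHS. All of this was set by the choice of members. In bulk samples, fewer cells with an open site and less cutting per cell cannot be told apart. The groups were apart at all 3 times in the chosen directions in 127 members (21.6%), against 0.837% of all DHS.

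At 18 h, which entered the rule only through the last clause, the difference was smaller than at 12 h and at 24 h. The median was -0.23, the quartiles were -0.36 and -0.099, and 503 members (85.4%) were below 0, against 47.1% of all DHS. Across all DHS the 18 h difference had a Pearson correlation of 0.631 with that at 12 h and 0.79 with that at 24 h, so it is not independent of the values that chose the members. All Ikaros values lay below all control values in 117 members (19.9%), against 11.2% of all DHS. Replicate 4 gave a median of -0.034 at 18 h, replicate 5 -0.25 and replicate 6 -0.40. The 18 h difference was thus close to 0 in replicate 4.

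**Figure D2:**
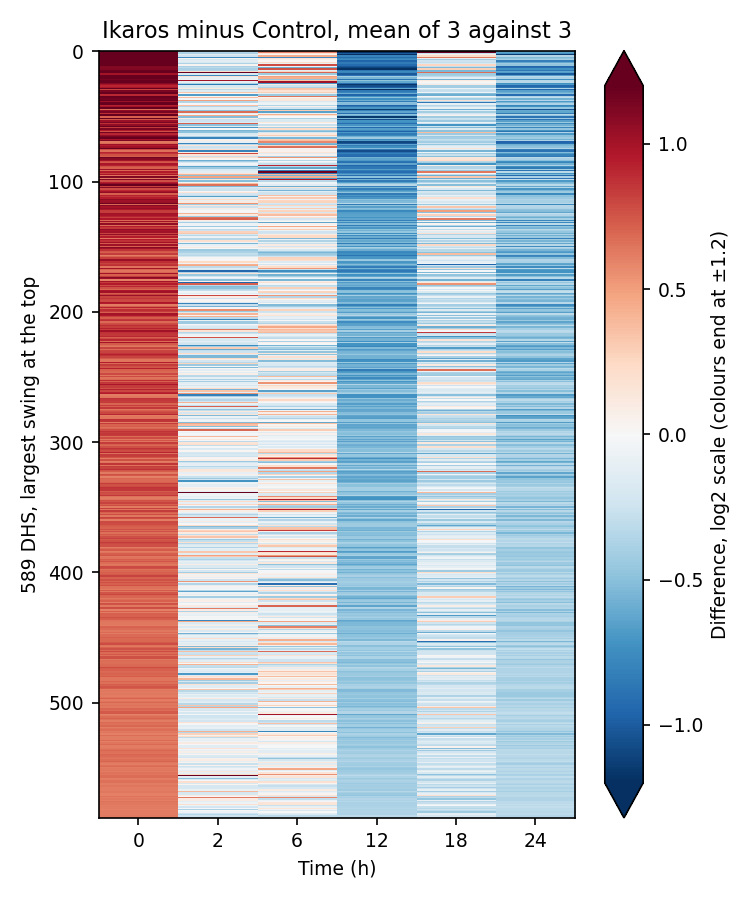
Ikaros minus Control (log2 scale, mean of 3 against 3) for each of the 589 DHS in rows, by time (h) in columns, ordered by the difference at 0 h minus the mean of those at 12 h and 24 h. The columns at 0 h, 12 h and 24 h have 1 colour each by choice, while 2 h, 6 h and 18 h hold both signs.

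Both lines had a part in the change of sign, and in most members that of the Ikaros line was larger. The swing of a DHS, defined as the difference at 0 h minus the mean of those at 12 h and 24 h, had a median of 1.27 over the members and ran from 0.93 to 3.61. In each DHS it is the sum of 2 terms. The Ikaros value at 0 h minus the mean of 12 h and 24 h had a median of 0.86, and the control mean of 12 h and 24 h minus 0 h had a median of 0.43. The Ikaros term was the larger in 490 members (83.2%), against 72.5% of the other DHS at or above the 0 h threshold and 49.4% of all DHS. In those other DHS the medians of the terms were 0.52 and 0.27. The terms are built from the values that chose the members and are given as a description. Both terms were above 0 in 558 members. The control term was at or below 0 in the other 31. Over all DHS the medians of the Ikaros and the control term were -0.043 and -0.035.

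Over the whole table, the course of the Ikaros line was close to 1 shape, up to its size and sign. After the mean of each DHS over the 6 times was removed, 1 principal component held 96.4% of the variance of the Ikaros group means over all DHS, and 99.0% of that over the members. Its weight was 0.82 for 0 h, was near 0 for the early times (-0.02 for 2 h and 0.10 for 6 h) and was negative later (-0.43 for 12 h, -0.11 for 18 h, -0.36 for 24 h). In the control line the first component held 30.7% and the fourth still held 18.8%. In this table a DHS that was high in the Ikaros line at 0 h, relative to its own mean, thus tended to be low at 12 h and 24 h. The authors had removed systematic noise with ARSyN, which rebuilds the values from few components. Whether the shared shape was in the reads before that step was not tested.

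The 8 members with the largest swing among those apart at all 3 times, 1 DHS per gene, were 5 promoters (Rusc1, Ssbp4, Agpat2, Dazap2 and Fads2), an exon of Chd2, an intron of Kdm6b, and a DHS 2384 bp from the start of Asic4. The Rusc1 DHS, 716 bp from the start of a gene for an adaptor with RUN and SH3 domains, read 6.13, 5.76 and 5.59 in the Ikaros line at 0 h and 4.17, 4.84 and 3.22 in the control line. At 12 h it read 4.46, 3.83 and 4.04 against 5.13, 5.11 and 5.09. At 24 h it read 4.20, 4.05 and 4.42 against 4.45, 5.34 and 5.00. The groups did not overlap at these times, although 4.42 and 4.45 were close at 24 h. The differences were 1.75, -1.0 and -0.71.

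Ssbp4 encodes a protein that binds single-stranded DNA, and its 19-CpG stretch is printed above. Its DHS read 5.62, 5.75 and 5.30 in the Ikaros line at 0 h against 4.30, 4.73 and 3.73 in the control line. At 24 h it read 3.55, 3.93 and 3.85 against 4.47, 4.60 and 4.72. At 2 h the values were 3.99, 4.35 and 4.65 against 4.99, 3.91 and 4.51. The Ssbp4 groups overlapped at 2 h and were well apart at 24 h. Agpat2, an acyltransferase of phospholipid and triglyceride synthesis, read 5.47, 5.38 and 5.56 against 4.38, 4.81 and 2.86 at 0 h, and 3.82, 4.23 and 4.10 against 4.25, 5.48 and 4.95 at 12 h. Its difference of 1.46 at 0 h rested in part on the low control replicate 6.

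Fads2, a fatty acid desaturase, had differences of 0.91, -1.06 and -0.94 at 0 h, 12 h and 24 h. Its control values at 12 h were 4.63, 5.01 and 5.20 and its Ikaros values 3.73, 4.02 and 3.92. A second Fads2 promoter DHS was also a member, at 1.03, -0.85 and -0.69. For Kdm6b, a histone demethylase gene, the intronic DHS read 6.58, 6.63 and 5.50 against 4.82, 4.54 and 4.50 at 0 h. At 12 h it read 4.46, 4.66 and 4.52 against 4.90, 5.17 and 4.83. Its large swing thus came mostly from 0 h, where the difference was 1.62, against -0.42 at 12 h and -0.32 at 24 h. Chd2, a chromatin remodeller gene, had differences of 1.18, -0.87 and -0.86, with Ikaros values of 5.88, 5.64 and 4.73 at 0 h and 3.32, 3.74 and 3.90 at 24 h. Control values of the Chd2 DHS were 4.53, 3.77 and 4.41 at 0 h and 4.50, 4.60 and 4.43 at 24 h, so that mainly the Ikaros line moved. Dazap2 and Asic4 had differences of 1.35 and 0.98 at 0 h and of -0.62 and -0.87 at 24 h. With trends in level, GC content and width removed, the 0 h differences of these largest-swing DHS ran from 0.25 (first Fads2 DHS) to 1.14 (Chd2). The Agpat2, Chd2 and first Fads2 DHS were then no members. Agpat2 (0.57) and the first Fads2 DHS (0.25) missed the threshold at 0 h. Chd2 kept the change of sign, at 1.14, -0.90 and -0.88, and was left out by the last clause of the rule.

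**Figure D3:**
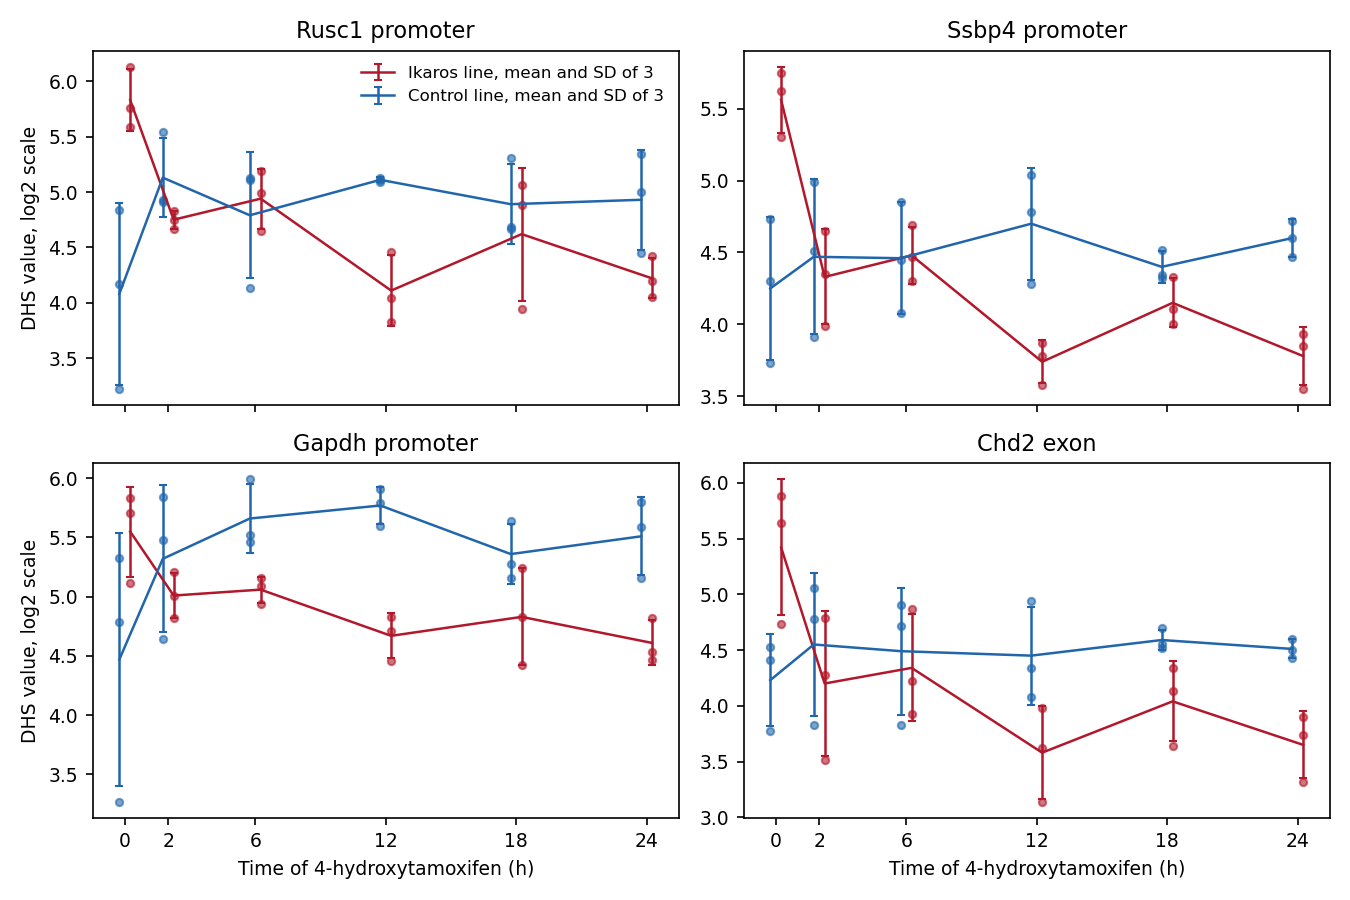
DHS values (log2 scale) by time (h) for the promoter DHS of Rusc1, Ssbp4 and Gapdh and the exonic DHS of Chd2; small points are libraries, lines and bars the mean and SD of 3. At Gapdh the control values at 0 h spread from 3.27 to 5.33, whereas those at 12 h lie between 5.60 and 5.91.

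Large swings were also found in faint and noisy DHS. The largest of all, 3.61, was at the promoter of Nectin2, a cell adhesion gene, and it was looked up after its value was seen. There the Ikaros values at 0 h were 4.99, 4.90 and 2.92 and the control values 3.35, 2.19 and 0.57, so the groups overlapped. The exonic DHS of Fam181a had the largest swing outside promoters, 2.87, at a mean level of 2.48. Its Ikaros values at 0 h were 5.11, 5.74 and 2.99, its control values 1.70, 3.32 and 3.00. At the Ssh2 intron the differences were 1.54, -0.90 and -0.53 at 0 h, 12 h and 24 h, but 0.62 at 18 h. For the DHS near Accsl, the control values at 0 h were 4.43, 4.23 and 0.25, so that a single library made its difference of 1.62.

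The member with the highest level stood apart from the others. A DHS of 503 bp at the gene model Gm21738 on chromosome 14 had a mean level of 11.65, and it also had the lowest GC content of all members, 36.1%. Repeats were marked in 92.5% of its bases, and whether its reads came from other copies was not tested. It read 11.95, 12.99 and 12.43 in the Ikaros line at 0 h against 10.66, 12.16 and 12.66 in the control line, with wide overlap. The next in level were promoters, those of Birc6 (6.40), of the inhibitor of apoptosis family, Fxr2 (6.39), an RNA-binding protein gene, and Sap130 (6.36), a member of a histone deacetylase complex. At Birc6 the differences were 0.69, -0.47 and -0.38. With trends in level, GC content and width removed, the 0 h differences of Birc6, Fxr2 and Sap130 were -0.084, 0.03 and -0.12. That of the Gm21738 DHS was then 1.09.

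The times that the rule left free were tested over all 52788 DHS with limma and Benjamini-Hochberg adjustment. They are not independent of the values that chose the members. Across all DHS the 2 h difference had Pearson correlations of 0.127, 0.481 and 0.496 with those at 0 h, 12 h and 24 h. For the 6 h difference these were 0.391, 0.36 and 0.527. At 2 h the differences of the members were mostly small and more often below 0 than above. The median was -0.12 (quartiles -0.27 and 0.055), and 403 of 589 (68.4%) were below 0. Of all DHS 48.7% were below 0, and of the other DHS at or above the 0 h threshold 25.4%. No member was called at 2 h in either direction, against 0.17% of all DHS called higher and 0.0246% called lower in the Ikaros line, and the smallest adjusted p was 0.149. At an unadjusted p under 0.05 there were 35 members, or 5.94% (5 higher and 30 lower), against 10.0% of all DHS. All Ikaros values lay below all control values in 63 members (10.7%; 7.07% of all DHS) and above in 7 (1.19%; 6.49% of all DHS). The replicates did not give the same median at 2 h: it was -0.42 in replicate 4, 0.0066 in replicate 5 and -0.010 in replicate 6, and the control library of replicate 4 had the highest 2 h median, 4.84.

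At 6 h the median difference was -0.043, with 265 members above and 324 (55.0%) below 0. Of all DHS 49.6% were below 0, and of the other DHS at or above the 0 h threshold 10.0%. No member was called, against 0.422% of all DHS called higher and 0.155% called lower, and the smallest adjusted p was 0.0708. At an unadjusted p under 0.05 there were 23 members (3.9%; 13.8% of all DHS). The groups were apart with Ikaros lower in 66 members (11.2%; 10.9% of all DHS) and with Ikaros higher in 21 (3.57%; 11.1% of all DHS). The median standard error of a member was 0.26 at both times, so the smaller differences could not be resolved with 3 libraries a group. With only the 2 groups of each contrast fitted, 0 members were called at 2 h and 0 at 6 h. Over all DHS that fit called 0 at 2 h, and 3 higher and 6 lower at 6 h. The calls over all DHS thus depended on the spread shared by the 12 groups. Taking 2 h, 6 h and 18 h together, 223 members (37.9%) were below 0 at all 3 times, 127 (21.6%) were above 0 at 6 h alone, and 26 (4.41%) were above 0 at all 3. Over all DHS these shares were 24.8%, 6.63% and 27.3%.

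Within the control line, the members' step between 2 h and 6 h was -0.0063 at the median, ran from -1.29 to 1.39, and was above 0 in 290 of 589. At an unadjusted p under 0.05 there were 41 members (6.96%; 10.7% of all DHS), 22 higher and 19 lower. A single member was called, against 0.0834% of all DHS called higher and 0.0341% called lower. This intronic DHS of Map2k2, a kinase of the MAP kinase pathway, was looked up after the test. It read 3.00, 3.80 and 3.61 at 2 h and 4.17, 4.96 and 5.36 at 6 h in the control line, a rise of 1.36 (SE 0.24, adjusted p = 0.0158, limma). The call was lost without replicate 5 or 6, without any of Control 2 h replicate 4, Control 6 h replicate 5 and Control 6 h replicate 6, under quantile normalization, and when the 2 groups were fitted alone. In the Ikaros line 0 members were called, as were 0.0% of all DHS, and no DHS reached an unadjusted p under 0.05. With only the 2 Ikaros groups fitted, 6 of 52788 did. So few small p-values among so many DHS mean that the p-values of this step ran too high. The lack of calls is thus no evidence that the Ikaros line stayed the same. The Ikaros step from 2 h to 6 h was above 0 in 587 members (99.7%), with a median of 0.073, against 49.0% and -0.002 over all DHS. Across all 52788 DHS this step had a Pearson correlation of 0.895 with the line difference at 0 h, which chose the members, so it is no independent measure of them.

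Members that lie at promoters, within 1000 bp of an annotated start site, made up 62.8% (370 of 589), against 25.9% of all DHS. Of the others, 106 lay between genes, 97 in introns and 16 in exons. The promoter share became 43.0% without replicate 6 and 18.7% once each library was freed of its trends in GC content, width and level. As selected, it was close to that of the 5059 other DHS at or above the 0 h threshold, 63.8%. The members were narrower than these, with a median width of 264 bp against 510 bp, and 280 of them (47.5%) were at most 200 bp wide against 35.5%. Their median mean level was 4.48, against 4.22 in those other DHS and 3.95 in all DHS.

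The members were rich in G and C. Their GC content had a median of 61.2% (quartiles 55.8% and 67.2%), against quartiles of 44.9% and 55.8% over all DHS, and medians of 59.0% over all promoter DHS and 62.3% in the other DHS at or above the 0 h threshold. CpG stood at a median of 5.75 per 100 bp, against 1.53 over all DHS and 7.44 in those other DHS. Promoter members had a median GC content of 65.1% and the non-promoter members 55.5%, against 48.1% for all non-promoter DHS. By a window of 500 bp with over 50% GC and an observed to expected CpG ratio over 0.6, 306 members (52.0%) were CpG-rich, against 16.9% of all DHS and 60.2% of the other DHS at or above the 0 h threshold. The non-promoter members were CpG-rich in 18 of 219 cases.

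The line difference followed GC content over the whole table, with opposite slopes at the times that chose the members. In the 10% of all DHS with the lowest GC content the median difference was -0.28 at 0 h, 0.54 at 12 h and 0.50 at 24 h. In the 10% with the highest GC content it was 0.61, -0.13 and -0.016. The member share rose from 0.0946% of DHS in the lowest decile to 4.97% in the highest, which held 262 members (44.5%). After trends with level, GC content and width were removed from each library, the rule selected 722 DHS, of which 175 were among the 589. Of these 722, 18.7% were promoter DHS, and their median GC content was 47.3%. The removal takes trends with GC content out of every library, so a weaker link of the selection with GC content was built into it. It is no test of where the G and C richness of the members came from. Among the members, the medians at 6 h, a time that the rule left free, were -0.11 in the 198 members with the lowest GC content and 0.031 in the 196 with the highest. Pearson's correlation of GC content with the 6 h difference was 0.123 over the 589 members and 0.047 over all DHS, values that share the same libraries.

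**Figure D4:**
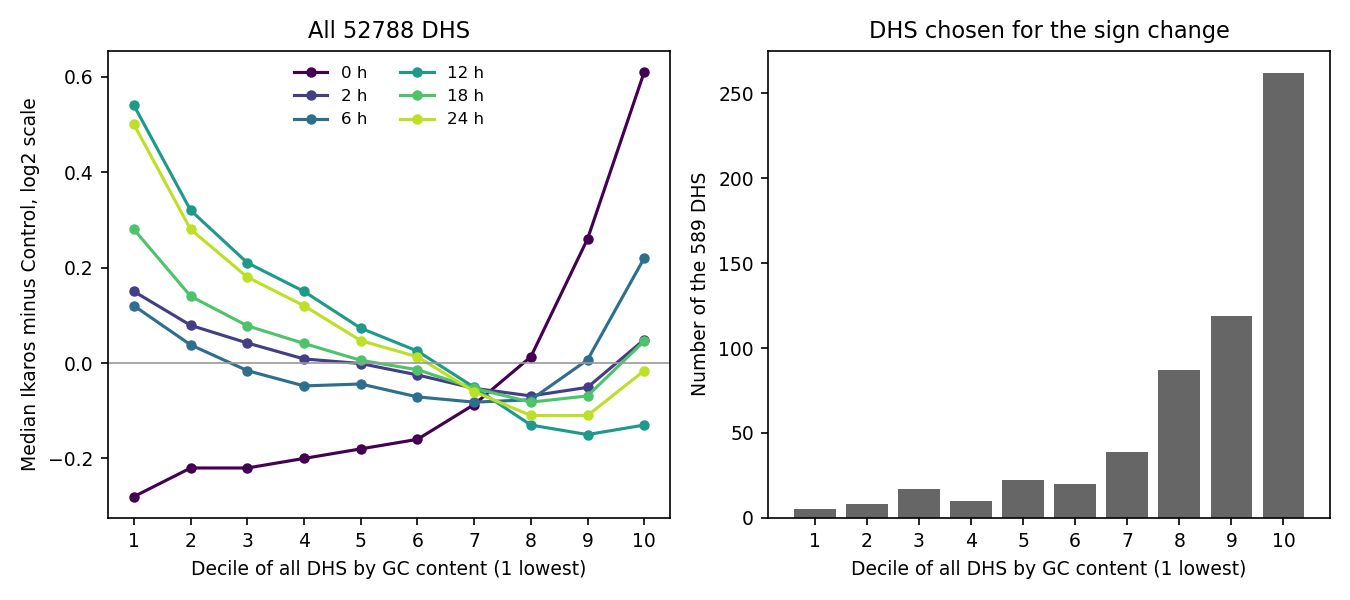
Left, median Ikaros minus Control (log2 scale) in each decile of all 52788 DHS by GC content, with a line per time; right, number of the 589 DHS in each decile. The line for 0 h rises from -0.28 to 0.61 while those for 12 h and 24 h fall from 0.54 and 0.50 to -0.13 and -0.016, and 262 of the 589 DHS lie in the highest decile.

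Short sequence motifs were counted on both strands in 300 bp around each DHS centre. The Ikaros core TGGGAA was in 24.4% of the members, in 24.7% of all DHS and in 20.0% of the other DHS at or above the 0 h threshold. The GC box GGGCGG, bound by Sp factors, was in 56.7% of the members against 20.2% of all DHS, in 73.8% of promoter members against 54.9% of all promoter DHS, and in 57.8% of the other DHS at or above the 0 h threshold, much as in the members. The Ets core CCGGAA was in 18.7% of the members against 10.9% of all DHS and 22.1% of those other DHS, and in 21.9% of promoter members against 26.8% of all promoter DHS. The Myc-type E box CACGTG was in 11.7% of the members, against 6.74% of all DHS and 10.5% of those other DHS. For the CCAAT box CCAAT these shares were 34.8%, 31.8% and 27.8%, and for the E2A-type E box CAGCTG 16.0%, 19.7% and 18.5%. The cores of rarer sites were in few members. The Fox core TGTTTAC was in 1.87%, against 3.65% of all DHS and 2.67% of those other DHS. For the CRE TGACGTCA the shares were 2.72%, 1.13% and 2.55%, and for the Nrf1 core GCGCATGC 3.06%, 1.75% and 5.06%. The AP-1 site TGACTCA was in 3.74%, 6.25% and 3.4%. These motifs differ in G and C content, as do the sets, and a match is only a match of letters.

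The promoter members lay at 352 protein-coding genes. More than 1 member promoter DHS was found at 13 of these genes, among them Bhlhe40, Brip1, Cd47, Ep300, Fads2, Hnrnpl, Nipbl, Phf21a, Psmb8, Rcor2, Stag2 and Tuba1c. A further promoter DHS that was no member was present at 173 of the 352 genes. These 197 further DHS had median differences of 0.46 (0 h), -0.18 (12 h) and -0.12 (24 h), and 161, 40 and 65 of them were above 0 at these times. Over all 13657 promoter DHS the medians were 0.34, -0.11 and -0.046, and 76.9%, 33.8% and 43.2% were above 0. The medians of the neighbouring DHS thus had the same signs as those of promoter DHS in general, and the difference between these sets was not tested. Members were spread over 21 chromosomes, and 57 lay within 10000 bp of another member.

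Among gene lists, 2.71% of all promoter DHS were members. Glycolysis, the pathway from glucose to pyruvate, had 3 members among its 25 promoter DHS (12.0%), at Gapdh, Eno1 and Pkm. Gapdh, the glyceraldehyde phosphate dehydrogenase of the pathway, read 5.12, 5.71 and 5.83 in the Ikaros line at 0 h against 5.33, 4.79 and 3.27 in the control line, which overlapped. At 12 h it read 4.46, 4.83 and 4.71 against 5.60, 5.79 and 5.91. At 24 h it read 4.47, 4.53 and 4.82 against 5.16, 5.59 and 5.80. The Ikaros values of Gapdh were below all control values at both late times. Eno1 (enolase) and Pkm (pyruvate kinase) were close to the thresholds, at 0.61 and 0.63 at 0 h and -0.43 and -0.36 at 24 h. With trends in level, GC content and width removed, they were at -0.024 and 0.12 at 0 h, and Gapdh at 0.91. None of these 3 DHS was a member without replicate 6, nor without the single library Control 0 h replicate 6. The study itself took up this pathway with these data, so its direction is not independent evidence. The 25 glycolysis DHS as a list had medians of 0.40 (0 h), -0.38 (12 h) and -0.39 (24 h).

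Splicing factors had 7 members among 67 promoter DHS (10.4%), at Hnrnph1, Hnrnpl, Hnrnpr, Hnrnpu, Sf3b3 and Srsf7. The largest of these at 0 h was Hnrnph1, an RNA-binding hnRNP gene, at 1.35, with -0.49 at 12 h and -0.33 at 24 h. Both Hnrnpl DHS were members, at 0.94 and 0.77 at 0 h and -0.54 and -0.56 at 24 h. Chromatin regulators had 4 members among 79 (5.06%), at Hdac1, Kdm2b, Kmt2a and Kmt2e. At Kmt2a, a histone methyltransferase gene, the differences were 1.49 (0 h), -0.55 (12 h) and -0.37 (24 h).

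Some other lists held at most 23 promoter DHS, so that 0 or 1 members there is close to what the share of 2.71% gives. Of 16 promoter DHS of pre-B receptor genes, 11 of genes taken as markers of the response, 22 of DNA replication genes and 10 of pre-B marker genes, 0 were members. B-lineage factors had 1 in 17, at Irf8, a transcription factor of B and myeloid cells. It read 4.79, 4.62 and 4.82 against 3.69, 4.05 and 4.62 at 0 h and 4.11, 4.00 and 3.92 against 4.51, 4.08 and 4.51 at 24 h, and the lines overlapped at 24 h. Cell cycle genes had 1 in 23, at Cdkn1a, an inhibitor of cyclin-dependent kinases. It read 6.35, 6.18 and 6.29 against 5.79, 5.65 and 5.15 at 0 h and 5.32, 5.12 and 5.29 against 5.93, 6.20 and 5.98 at 24 h. The Cdkn1a groups were apart at both times. With trends in level, GC content and width removed, the 0 h difference was 0.056 at Cdkn1a and 0.13 at Irf8. Neither was then a member, nor under quantile normalization or without replicate 6. Among larger lists, there were 0 members among 45 histone and 0 among 94 oxidative phosphorylation promoter DHS. Shares near 2.71% were found for zinc finger genes (10 of 357, 2.80%), mitochondrial ribosomal proteins (2 of 82, 2.44%) and translation factors (2 of 75, 2.67%). Proteasome genes had 2 of 44 (4.55%), ribosomal proteins 1 of 81 (1.23%), solute carriers 3 of 198 (1.52%) and ubiquitin enzymes 1 of 94 (1.06%). No test of these lists was made.

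The membership was then set on 2 replicate numbers and read in the third, which had not entered that choice. Leaving out replicate 4, 5 or 6 selected 847, 742 and 626 DHS, which held 317, 310 and 257 of the 589 members (53.8%, 52.6% and 43.6%). At 0 h the median difference of these DHS was 0.79, 0.81 and 0.80 in the replicates that chose them and 0.26, 0.27 and 0.32 in the left-out replicate. At 12 h it was -0.25, -0.51 and -0.40 in the left-out replicate and at 24 h -0.18, -0.29 and -0.16. The medians in the left-out replicate thus kept the signs at all 3 times. Their size was smaller than in the replicates used, except at 12 h in replicate 5 (-0.51 against -0.49). All DHS in the left-out replicate had medians between -0.06 and 0.070 at these times. Over all promoter DHS the medians in replicates 4, 5 and 6 were 0.31, 0.20 and 0.53 at 0 h. They were -0.059, -0.15 and -0.13 at 12 h, and -0.061, 0.0063 and -0.092 at 24 h. Promoter DHS in general thus had the same signs, except in replicate 5 at 24 h. The share of DHS with all 3 signs as chosen was 43.7%, 55.3% and 41.9% in the left-out replicate. The same 3 signs were present in 16.5%, 15.7% and 18.3% of all DHS, and in 28.6%, 25.2% and 39.3% of all promoter DHS. In DHS from the middle of the GC range of the chosen ones the shares were 33.2%, 27.9% and 37.9%. For replicate 6 the share in the chosen DHS was thus close to that of any promoter DHS. The correction by ARSyN had been made over all libraries together, so the left-out replicate was not wholly separate.

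**Figure D5:**
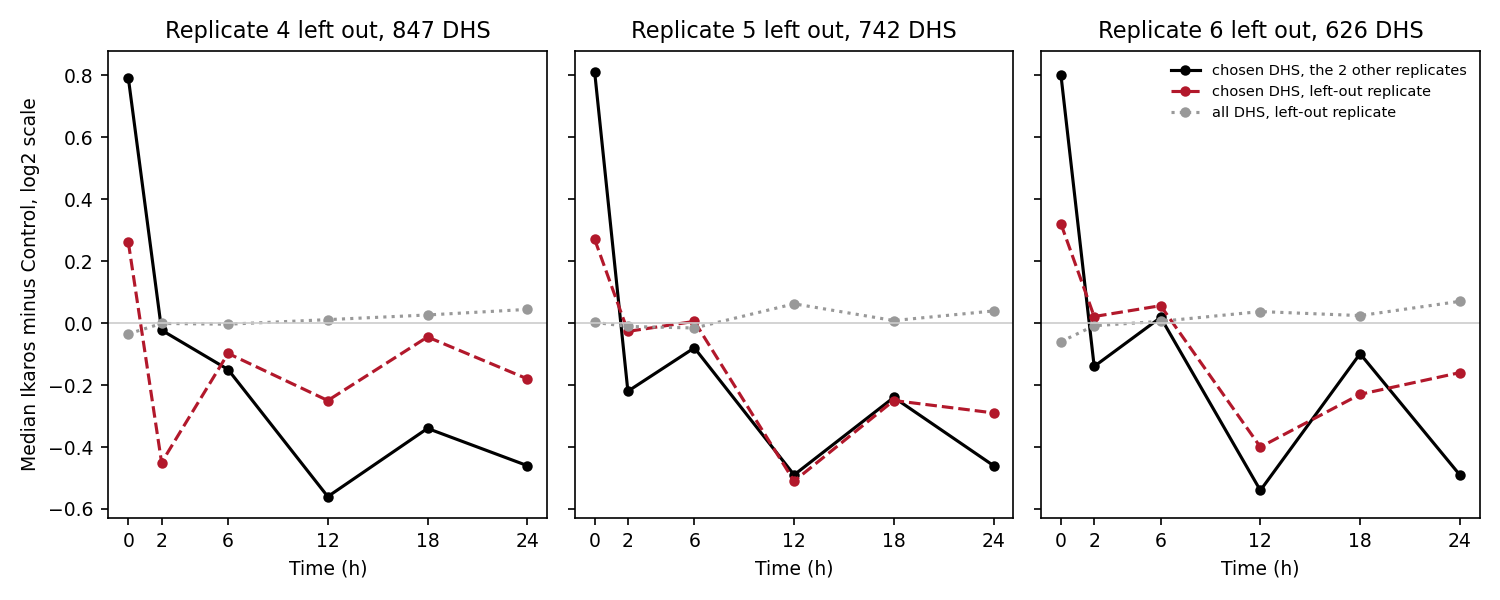
Median Ikaros minus Control (log2 scale) by time (h) of the DHS chosen on 2 replicate numbers, in those replicates (black) and in the replicate left out (red), with all DHS in the left-out replicate (grey). The red line lies above 0 at 0 h (0.26, 0.27 and 0.32) and below 0 at 12 h and 24 h in each panel.

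Leaving out each of the 24 libraries at 0, 12, 18 or 24 h in turn gave between 453 members, without Control 0 h replicate 6, and 794, without Control 0 h replicate 4. Between 338 and 582 of the 589 DHS were selected again, more than without a whole replicate number. In 31 alternative settings of the values, libraries or level limit, 11 of the 589 DHS were selected every time. These were at or near Rusc1, Ddx59, Ssbp4, Rtl6, Asic4, Fads2, Zbtb7a, Map2k2, Gm20696, Sgk1 and Tas1r2, and they were named after this count.

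The thresholds cut through a continuous range. At 0 h the members just inside were DHS of Psd4 and Hip1, both at 0.60 after rounding, and those just outside were DHS of Emilin2 and Morn1, also at 0.60. At 12 h the nearest inside were an intron of Gm20388 and a DHS near Ywhaz, both at -0.31, and the nearest outside a Tanc1 intron and a DHS near Akap11, both at -0.30. At 24 h Trim28 and Ermp1 were just inside and Khdrbs1 and Sap30l just outside, all at -0.30. The 2 largest swings removed by the last clause were the Exd1 promoter, with 0.99 at 0 h and -1.43, -1.06 and -1.3 at the 3 later times of the clause, and the Hist1h4k promoter, with 1.06 and then -1.2, -0.74 and -1.07.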

How the data were processed

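The deposited table held 36 columns, 1 per library. Per the study's methods, the authors mapped trimmed reads by Bowtie2 on mm10, called peaks of a narrow and a broad size per replicate by HOMER, merged the peaks into consensus DHS, and counted reads in these with bedtools. They then filtered low DHS, scaled by RPKM and TMM and removed systematic noise with ARSyN. The deposited values are taken as log2 RPKM: as natural logs they would give at least 1575615 reads in DHS per 1000000 reads, and as log2 between 369487 and 432755.

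Differences are means of 3 libraries against 3. limma 3.58.1 in R 4.3.3 was fitted over all 52788 DHS and 12 groups with a moderated variance trend and Benjamini-Hochberg adjustment at 0.05. The fit was first tested on made-up data with known answers. DHS were annotated with GENCODE vM21 and the GRCm38.p6 sequence. Promoter DHS lay within 1000 bp of a start site. Replicate numbers pair the lines by batch in the labels; correlations of deviations of same-numbered libraries lay between -0.251 and 0.272, so the main fit had no block and a blocked fit was an alternative.

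Named DHS were, by rule, the 8 largest swings among members apart at 0 h, 12 h and 24 h, the 2 largest in exons, introns and between genes, the 4 highest means, called members, listed genes, and those next to a threshold. Exceptions are stated. The members, lists and tests were chosen with earlier results of these data known. Alternatives were other scalings, trend removal, fits, thresholds, level limits and left-out libraries. Values before ARSyN were not used here.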

Additional observations from a re-analysis of the deposited data

Results flagged for a closer look

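In 127 of the 589 DHS all Ikaros values lay above all control values at 0 h and below them at both 12 h and 24 h. The choice of members favoured this, the share over all DHS was 0.837%, and the difference between the times was not tested. Groups of 3 libraries are too small for a search for single outlying libraries.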

How the results depend on the processing

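With the replicate block, 0 members were called at 2 h, 0 at 6 h, 0 in the Ikaros step from 2 h to 6 h and 1 in the control step, as without it. Over all DHS the blocked fit called 53 higher and 5 lower at 2 h, and 163 higher and 57 lower at 6 h. It called 0 in the Ikaros step, and 33 higher and 9 lower in the control step. At 2 h the count was 1 without Control 2 h replicate 5, where 415 of all 52788 DHS were called higher and 86 lower. At 6 h it was 1 under quantile normalization, 2 with trends removed and 2 without Control 6 h replicate 4. Over all DHS these settings called 234, 163 and 354 higher and 47, 64 and 101 lower at 6 h. In the control step it was 0 when only its groups were fitted and under quantile normalization, where 0 of all DHS were called. With replicates or libraries left out it was between 0 and 2. The count of 2 was without replicate 4, where 58 of all DHS were called higher and 69 lower. The number of members, 589, became 1184 with libraries centred at their medians, 932 under quantile normalization, 722 with trends removed, 139 with stricter and 1383 with looser thresholds. The promoter share, 62.8%, became 43.9% under quantile normalization, 18.7% with trends removed, 67.2% without the 25% of DHS lowest in level, 57.6% with stricter thresholds, 55.7% with start sites within 500 bp and between 43.0% and 64.8% with a replicate number left out. The median GC content, 61.2%, became 57.0% under quantile normalization, 47.3% with trends removed and between 57.9% and 61.8% with a replicate number left out. The median difference at 6 h, -0.043, became 0.011 with centring, 0.083 under quantile normalization, -0.0097 with trends removed, -0.077 with stricter and -0.0080 with looser thresholds, and between -0.15 and 0.018 with a replicate number left out. It had no stable sign. The causes were not tested. Depth could not be judged, and the noise removal by the authors, the separate collection at 0 h and 3 libraries a group limit every value here.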
